A study of Mus musculus with 2 samples.

Results

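Reticular stromal cells of the bone marrow, known for the leptin receptor (Lepr) and the chemokine Cxcl12, were found among cells taken from mouse knee joints. A cell counted as a member when its barcode had at least 500 genes and at most 10% mitochondrial counts, at least 2 Lepr and 5 Cxcl12 UMIs (unique molecular identifiers, each counting 1 captured RNA molecule), and little RNA of the neighbouring tissues. Little meant Prg4 (the joint lubricant) under 20000 CPM of the cell (counts per 1000000 of its UMIs), Col2a1 (cartilage collagen) under 2000 CPM, and fewer than 3 of the 6 adventitial fibroblast genes Pi16, Cd34, Scara5, Clec3b, Dpp4 and Mfap5. The rule picked 338 of 19881 kept barcodes, 111 of 9889 after DMM (surgical destabilisation of the medial meniscus, a mouse model of osteoarthritis), and 227 of 9992 after sham surgery. These measured values chose the cells, so Lepr, Cxcl12 and the other genes of the rule are described and not tested.

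Both groups were wild-type (WT) mice, and each was 1 library pooled from 3 animals. The labels used here give no strain, age, sex or interval after surgery. Cells were freed with collagenase and dispase, sorted as live cells without the surface proteins CD45, Ter119 and CD31, and sequenced on a 10x Genomics 3′ kit. The labels name the tissue knee joint cartilage and the cells superficial cells. They name no marrow, and where in the joint these cells sat was not measured. With 1 library per group, surgery and library cannot be told apart and no test between DMM and sham was possible. Values in square brackets are 95% intervals for counting error only, and leave out how cells, mice and preparations differ.

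In mouse bone marrow, cells with Lepr and Cxcl12 form a network around the sinusoids. They supply blood stem cells and lymphoid progenitors with Cxcl12, which holds these cells in the marrow through the receptor Cxcr4, and with stem cell factor, the product of Kitl. The transcription factors Ebf3, Ebf1 and Foxc1 keep their identity, and they can form fat cells and bone cells. They are known for carrying RNA of both fates at once, such as Adipoq (the fat hormone adiponectin) beside Runx2 (the master regulator of bone formation).

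The libraries held 97346999 UMIs on 11076 barcodes in DMM and 106799078 UMIs on 11362 barcodes in sham. Members held 797805 UMIs in DMM and 1808585 in sham, so the sham values carry the smaller counting error. The median member had 6467 UMIs and 2678 genes in DMM, against 7248 UMIs and 2811 genes in sham, with a range of 1215 to 30542 UMIs in DMM and 1063 to 33068 UMIs in sham. The median share of mitochondrial UMIs was 2.10% in DMM and 2.03% in sham. The libraries shared 24 barcodes, of which 0 were members. All levels below are CPM, the UMIs of a gene summed over the cells of a class and scaled to 1000000 UMIs of that class.

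The minimums for Lepr and Cxcl12 alone were passed by 134 DMM and 330 sham cells. Of these, 15 DMM and 83 sham cells were dropped because they carried 3 or more adventitial genes, and 8 DMM and 20 sham cells because Prg4 or Col2a1 was over its limit. The dropped cells with adventitial genes had less Adipoq and Kitl, marrow stromal genes that the rule did not use. Pdgfra, a growth factor receptor and also a marker of marrow stromal cells, was not set apart in this way. It was at 361 CPM in DMM and 449 CPM in sham dropped cells, and at 369 CPM in DMM and 356 CPM in sham members. In the dropped cells Adipoq was at 90.3 CPM in DMM and 44.3 CPM in sham, and Kitl at 258 CPM in DMM and 205 CPM in sham. In members Adipoq was at 706 CPM in DMM and 714 CPM in sham, and Kitl at 1977 CPM in DMM and 2378 CPM in sham.

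Cells on both sides of the Lepr threshold carried Adipoq and Kitl, at lower levels outside it. Members with exactly 2 Lepr UMIs numbered 17 in DMM and 18 in sham, with Adipoq at 483 CPM in DMM and 563 CPM in sham and Kitl at 916 CPM in DMM and 1267 CPM in sham. Cells with 1 Lepr UMI that met the rest of the rule numbered 32 in DMM and 30 in sham, and they carried Adipoq at 194 CPM in DMM and 91.4 CPM in sham and Kitl at 211 CPM in DMM and 409 CPM in sham. At the Cxcl12 threshold, members with 5 to 7 Cxcl12 UMIs were few, 4 in DMM and 10 in sham, and hardly carried Adipoq (0 CPM in DMM and 14.0 CPM in sham). Cells with 3 or 4 Cxcl12 UMIs, 6 in DMM and 28 in sham, had Adipoq at 0 CPM in both libraries. At the adventitial limit, 6 DMM and 11 sham members carried 2 of the 6 genes, with Adipoq at 0 CPM in DMM and 459.7 CPM in sham, and 6 DMM and 30 sham cells outside carried 3, with Adipoq at 58.3 CPM in DMM and 36.4 CPM in sham.

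**Figure D1:**
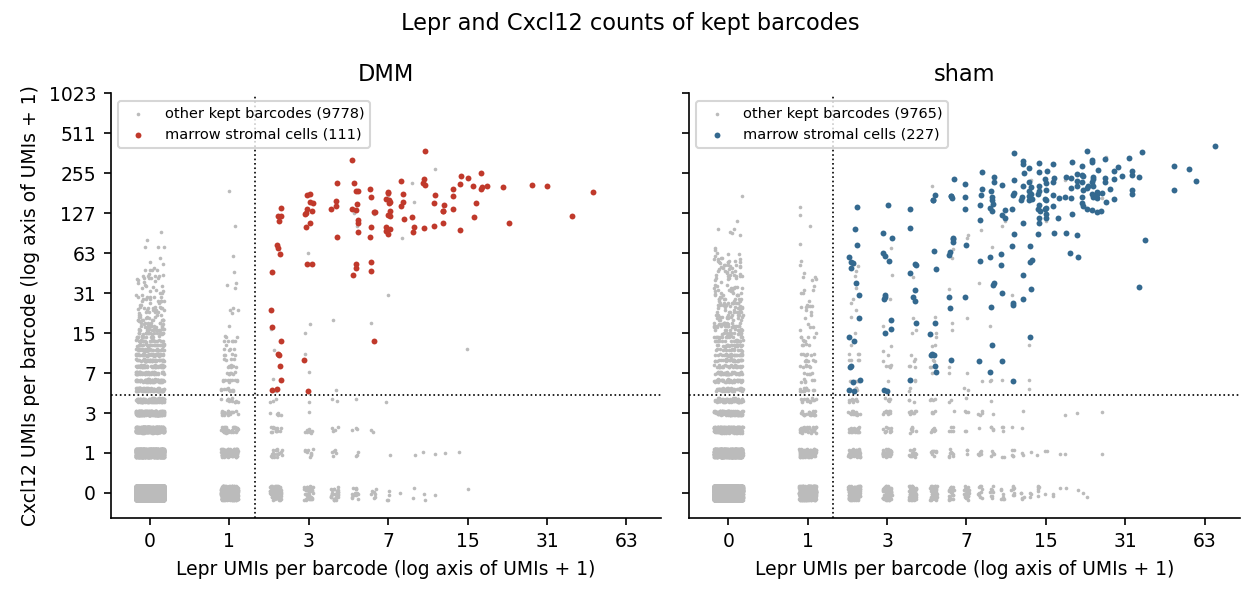
Lepr UMIs (x axis) against Cxcl12 UMIs (y axis) of every kept barcode, both on log axes of UMIs + 1 with a small random shift, for DMM (left) and sham (right). Coloured points are the 111 DMM and 227 sham members, grey points all other kept barcodes, and dotted lines the minimums of 2 and 5 UMIs. Most members lie far above the Cxcl12 line, and a thin tail of members reaches down to it.

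Genes that the rule did not use matched the label, given here as levels and not as tests, because the members were chosen by 2 genes of the same cells. Kitl, the stem cell factor, was at 1977 CPM in DMM members and 2378 CPM in sham members. Perivascular cells of the same libraries, picked by the muscle actin Acta2 with pericyte genes, had 286 CPM in DMM and 299 CPM in sham. Osteoblast lineage cells had 51.7 CPM in DMM and 71.8 CPM in sham, and adventitial fibroblasts 29.2 CPM in DMM and 58.0 CPM in sham. Erythroid cells, which should lack the gene and so show the level of free RNA, had 2.35 CPM in DMM and 4.82 CPM in sham. Members thus had the highest Kitl of the 5 classes in both libraries.

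Among the transcription factors, Ebf3 was the one most restricted to members of the 3 that keep this cell identity. It was at 1606 CPM in DMM members and 1853 CPM in sham members, while the highest of the other 4 classes, the perivascular cells, had 75.7 CPM in DMM and 63.0 CPM in sham. Foxc1 was at 468 CPM in DMM members and 409.7 CPM in sham members, against 224 CPM in DMM perivascular cells and 191 CPM in sham perivascular cells. Ebf1 did not set members apart from adventitial fibroblasts, with 1781 CPM in DMM members and 2102 CPM in sham members beside 1729 CPM in DMM fibroblasts and 2029 CPM in sham fibroblasts.

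The genes Adipoq, Lpl and Hp set members apart from the other connective tissue cells. This does not hold for fat-related genes as a whole. Of the 20 genes of the adipogenic list, 9 had under 50 UMIs over both member sets. In DMM members 2 of the 20 had no UMI, and in sham members 2. Adipoq reached at most 4.05 CPM in any of the other 4 classes, against the 706 CPM of DMM members and 714 CPM of sham members. Hp (haptoglobin, a plasma protein that binds free haemoglobin) was at 3824 CPM in DMM members and 2871 CPM in sham members, and its highest level elsewhere was 35.2 CPM in DMM perivascular cells. Lpl (lipoprotein lipase, which frees fatty acids from blood lipids) was at 1953 CPM in DMM members and 1453 CPM in sham members, against 127 CPM in DMM perivascular cells and 109 CPM in sham perivascular cells.

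Some bone-related genes were shared with the osteoblast lineage cells. Ibsp (bone sialoprotein, a mineral-binding matrix protein) was at 2756 CPM in DMM members and 2849 CPM in sham members, against 7198 CPM in DMM osteoblast lineage cells and 6447 CPM in sham osteoblast lineage cells, whose rule used the gene. Runx2, which no rule used, was at least as high in members as in that class, at 934 CPM in DMM members and 1543 CPM in sham members beside 724 CPM in DMM and 1200.0 CPM in sham. The collagen gene Col1a1 rested on single cells. Its summed 4781 CPM in DMM members and 3393 CPM in sham members came to 79.1% in DMM and 58.8% in sham out of 1 cell each, and its median over single members was 83.0 CPM in DMM and 148 CPM in sham. Not every bone-related gene was high in members. Sp7 was at 33.8 CPM in DMM members and 45.3 CPM in sham members. Bglap was found in 9.01% of DMM members and 5.62% of DMM erythroid cells, and 1 DMM member held 91.1% of its UMIs.

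The 20 genes that led members over all other kept barcodes in both libraries were Serpina3f, Kng1, Esm1, Adipoq, Gdpd2, Gm6249, Serpina3g, C6, Ptchd4, Grid1, Il1rn, Gzmk, Kcnq3, Dok6, Wdr86, Gm4951, Kng2, Serpina12, Hp and Trf. All 20 were at least 8-fold higher in members than in perivascular, osteoblast lineage, adventitial and erythroid cells in both libraries, also with a floor of 3 counts per class where a class had fewer. The smallest such margin was the 19.3-fold of Serpina12 over osteoblast lineage cells. Against all other kept barcodes, 6.04% of 3676 genes with at least 50 CPM in DMM members and 6.07% of 3708 such genes in sham members were 8-fold higher, so a lead of this size was uncommon, and these 20 were chosen by it.

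Kng1 and its close copy Kng2 encode kininogens, the plasma precursors of bradykinin, and reads could be split between them. Kng1 was at 272 CPM in DMM members and 273 CPM in sham members, and at most 0.652 CPM in the other 4 classes. Esm1 encodes endocan, a secreted proteoglycan best known from endothelium, and was at 1075 CPM in DMM members and 990.3 CPM in sham members. The defining endothelial genes Pecam1 and Cdh5 were at 17.5 and 1.25 CPM in DMM members and 10.5 and 0 CPM in sham members. Il1rn, the antagonist of the interleukin-1 receptor, was at 155 CPM in DMM members and 145 CPM in sham members. Trf encodes transferrin, the iron carrier of plasma, and was at 835 CPM in DMM members and 807 CPM in sham members. Gdpd2, a membrane enzyme of phosphodiester cleavage, was at 727 CPM in DMM members and 642 CPM in sham members.

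**Figure D2:**
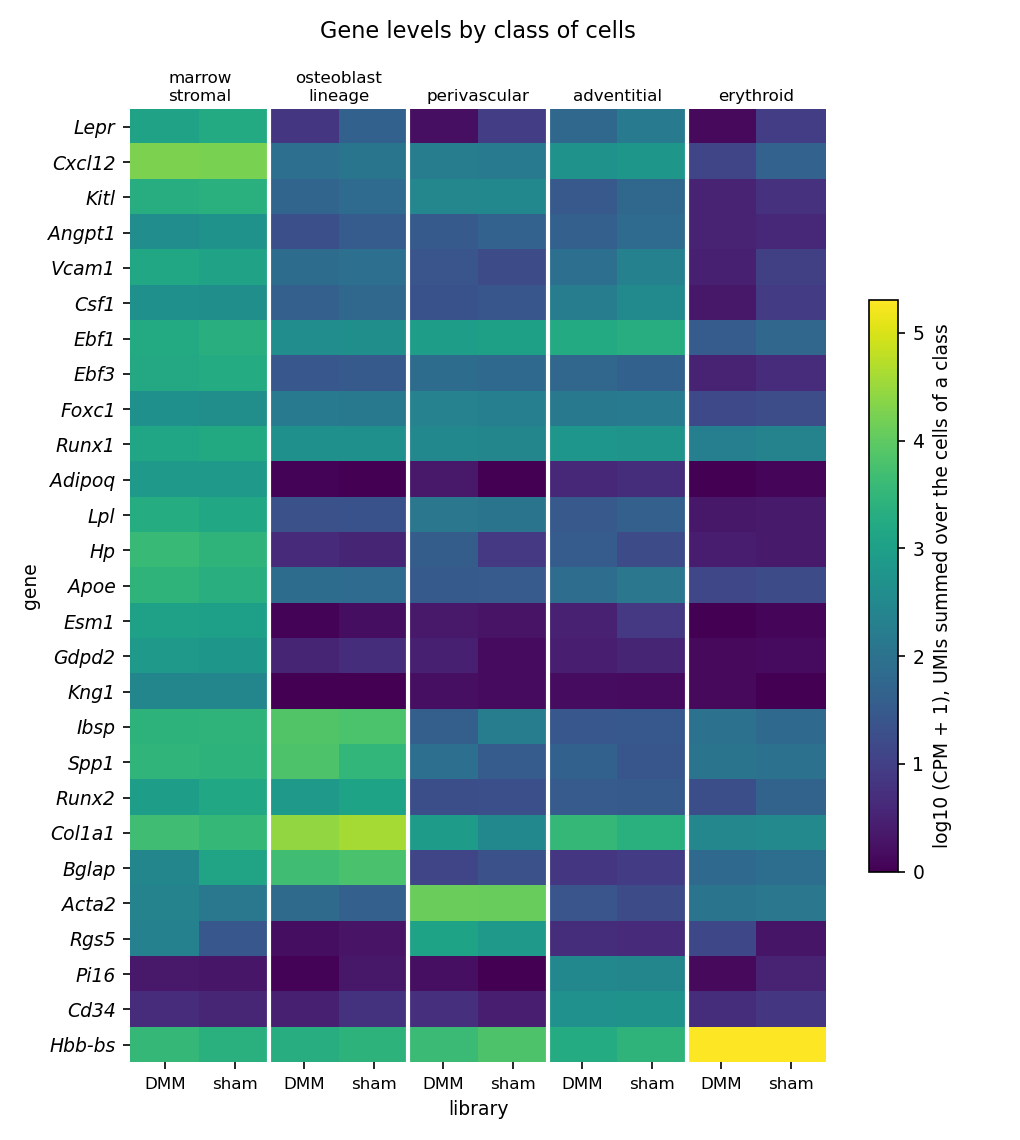
Levels of 27 genes (rows) in 5 classes of cells, each with DMM left of sham, as log10 of CPM + 1 on the colour scale. Members share Ibsp, Spp1 and Runx2 with osteoblast lineage cells and Ebf1 with adventitial and perivascular cells, while Adipoq, Esm1, Gdpd2 and Kng1 are bright in the marrow stromal columns only, and Acta2, Pi16 and Hbb-bs mark the other classes.

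The starts of a defining gene and of the most restricted fat gene are shown for their contrast in base composition, as the 250 bases before the RefSeq transcription start on the plus strand of GRCm38.p6. Cxcl12 lies at chr6:117168535-117181367 and Adipoq at chr16:23146536-23158028 (GENCODE vM21, GRCm38), and both are on the plus strand. Capitals mark CCAAT read on either strand, a box bound by NF-Y.
Cxcl12 chr6:117168285-117168534: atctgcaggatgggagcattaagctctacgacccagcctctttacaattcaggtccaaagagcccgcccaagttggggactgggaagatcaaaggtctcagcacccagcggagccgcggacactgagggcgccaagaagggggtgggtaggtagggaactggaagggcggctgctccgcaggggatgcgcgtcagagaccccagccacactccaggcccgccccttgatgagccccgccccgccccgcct
Adipoq chr16:23146286-23146535: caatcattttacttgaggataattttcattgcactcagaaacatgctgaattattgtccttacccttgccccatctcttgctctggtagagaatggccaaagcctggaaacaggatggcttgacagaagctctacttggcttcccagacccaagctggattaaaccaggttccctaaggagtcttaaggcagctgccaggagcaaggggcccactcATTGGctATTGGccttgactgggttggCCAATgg
The Cxcl12 window is 64.4% G and C and holds no CCAAT, and the Adipoq window is 48.8% G and C and holds CCAAT at bases -34, -27 and -7 from the start. Over all 32851 RefSeq windows of this length, 33.8% held CCAAT, and 5 of the 18 windows found for 26 leading and niche genes held it (Adipoq, Foxc1, Gdpd2, Lepr and Serpina12). TATAAA on either strand stood in 3 of the 18 windows and in 12.4% of all windows. The EBF half-site pair CCCNNGGG stood in 2 of the 18 windows and in 11.8% of all windows, and TTGCNNAA, the core of the C/EBP site, in 4 of the 18 and in 9.56% of all. These matches are descriptions of letters.

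Members took a smaller share of the DMM library. They were 1.12% [0.924, 1.35] of kept barcodes in DMM and 2.27% [1.99, 2.58] in sham, a 2.02-fold [1.61, 2.56] lower share. Because the rule asks for 2 Lepr UMIs and Lepr itself was lower in DMM members, the share was also taken with Kitl at 2 or more UMIs in place of Lepr, a choice added after the data were seen. It gave 126 cells (1.27%) in DMM and 242 cells (2.42%) in sham, a 1.90-fold [1.53, 2.38] lower share in DMM. Of these cells 103 in DMM and 207 in sham were also members. When every barcode was first thinned to 2000 UMIs, the shares were 0.663% in DMM and 1.73% in sham.

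Other classes moved in different directions beside this. Erythroid cells, which the sort should have removed, were 3.60% of DMM and 7.46% of sham barcodes, a 2.07-fold [1.82, 2.36] lower share in DMM. Leaving them out of the denominator, members were 1.16% of DMM and 2.45% of sham barcodes. Osteoblast lineage cells were 9.13% in DMM and 4.11% in sham, adventitial cells 5.10% in DMM and 8.16% in sham, and perivascular cells 2.99% in DMM and 3.74% in sham. Shares depend on what the digestion freed and the sort kept, and their part in these differences was not tested.

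Single members varied in their levels. Kitl had quartiles of 854 to 3140 CPM around a median of 1927 CPM in DMM members, and of 1092 to 3424 CPM around 2025 CPM in sham members. A Kitl UMI was found in 93.7% of DMM and 93.0% of sham members, and in 0.843% of DMM and 1.88% of sham erythroid cells, whose median depths were 6411 UMIs in DMM and 5919 UMIs in sham. The niche factor was thus detected in nearly every member of both libraries.

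Adipoq was found in 84.7% [76.6, 90.8] of DMM members and 73.1% [66.9, 78.8] of sham members. Thinned to 2000 UMIs per cell, which left 107 DMM and 217 sham members, the shares were 60.7% in DMM and 51.6% in sham. Among erythroid cells it was found in 0 of 356 in DMM, which allows a share of up to 0.843%, and in 0.134% in sham. The median Hp level over single members was 3417 CPM in DMM and 2235 CPM in sham, and that of Lpl 1729 CPM in DMM and 1054 CPM in sham, with the cells of both libraries overlapping over most of their range. Ibsp was found in 82.0% of DMM and 86.3% of sham members, and in 9.55% of DMM and 10.5% of sham erythroid cells.

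**Figure D3:**
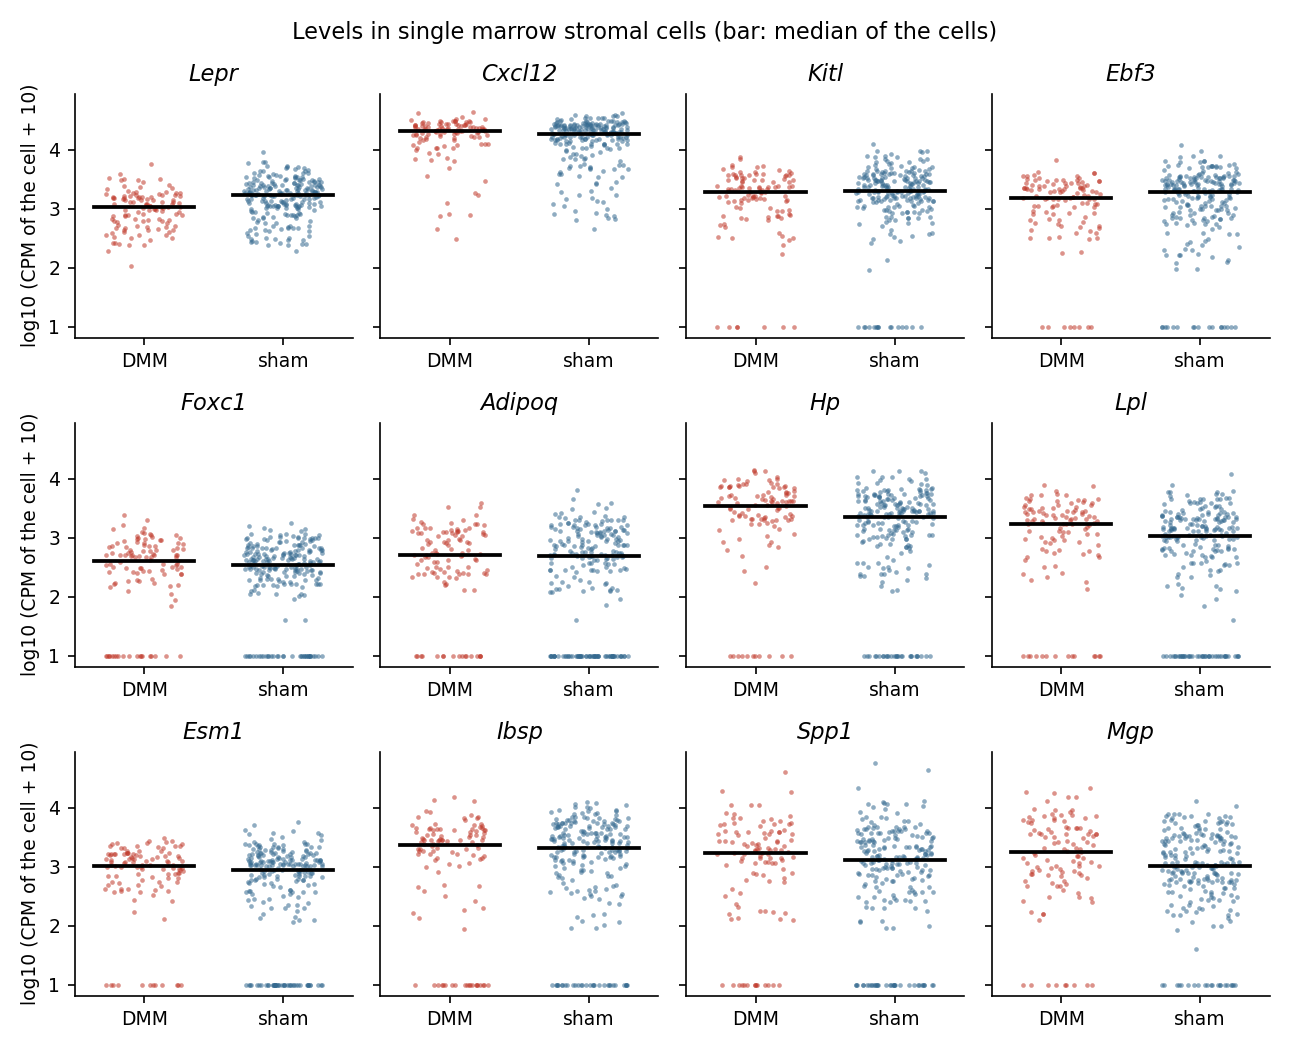
Levels of 12 genes in single members, as log10 of the cell's CPM + 10, with DMM (red, 111 cells) left of sham (blue, 227 cells). Each point is a cell and each bar the median of the cells. Lepr sits lower in DMM (median 1068 CPM) than in sham (1725 CPM), Hp and Lpl higher, and Kitl and Ebf3 overlap almost wholly.

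The fat-related gene Adipoq and the bone-related gene Ibsp were often found in the same cells. Of the 94 DMM members with an Adipoq UMI, 82 (87.2%) also had an Ibsp UMI, against 9 of 17 (52.9%) DMM members without Adipoq. In sham the counts were 152 of 166 (91.6%) with Adipoq and 44 of 61 (72.1%) without. Kitl went the same way, found in 94 of 94 DMM members with Adipoq and 10 of 17 without, and in 164 of 166 sham members with Adipoq and 47 of 61 without. Alpl (alkaline phosphatase, an early enzyme of bone formation) ran the other way, found in 20.2% of DMM members with Adipoq and 47.1% without, and in 30.1% of sham members with Adipoq and 45.9% without, though the intervals of these shares overlap. Sp7 was found in 14.9% with and 29.4% without Adipoq in DMM, and in 22.3% and 21.3% in sham. Limch1 was found in 68.1% with and 47.1% without Adipoq in DMM, and in 63.9% and 55.7% in sham. Wif1 was found in 47.9% with and 41.2% without Adipoq in DMM, and in 59.0% and 54.1% in sham. Intervals overlap for these genes too. Detection also follows the depth of a cell: median depths were 6396 UMIs with and 7050 UMIs without Adipoq in DMM, and 7801 UMIs with and 5870 UMIs without in sham.

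Summed over the 20 genes of each list, adipogenic genes had a median of 8235 CPM per DMM member and 6504 CPM per sham member, and osteogenic genes 11887 CPM per DMM member and 12073 CPM per sham member. Across members the rank correlation of these sums was -0.13 in DMM and -0.20 in sham, over 111 and 227 cells that share a library and the scaling to their own total. That of Hp with Adipoq was 0.49 in DMM and 0.60 in sham, and that of Kitl with Cxcl12 0.49 in DMM and 0.43 in sham. A few cells had osteogenic sums far above the rest, up to 212756 CPM in DMM and 343716 CPM in sham. At least 2 of Bglap, Bglap2, Ibsp, Sp7, Alpl and Dmp1 reached 2 UMIs in 18 of 111 DMM members (16.2%) and 53 of 227 sham members (23.3%).

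**Figure D4:**
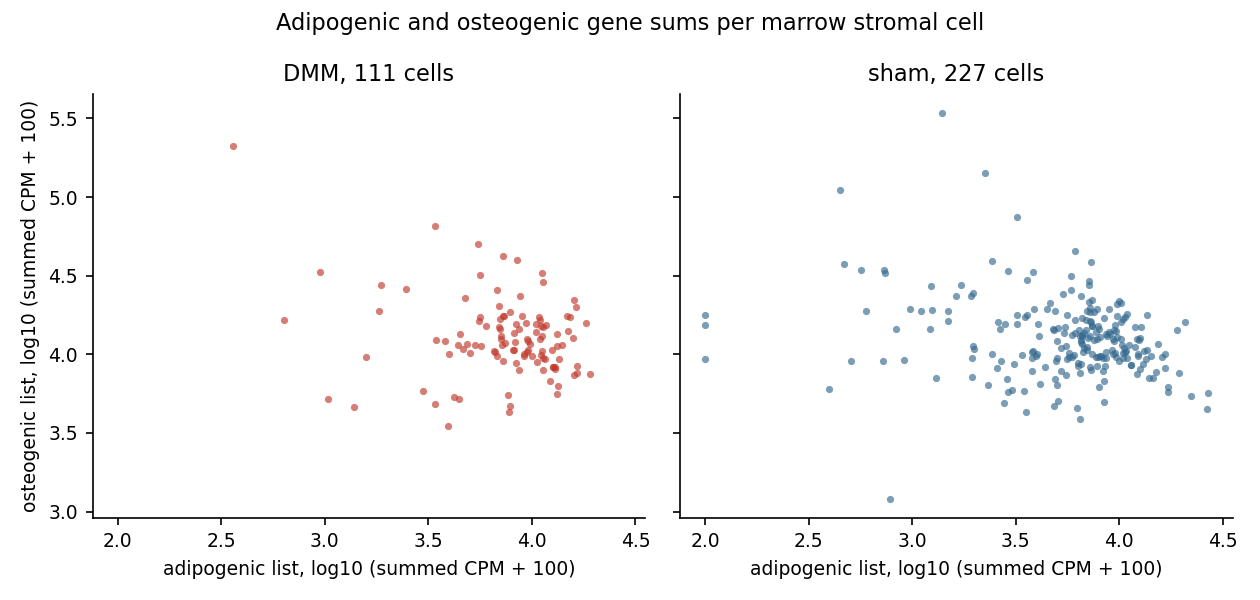
Summed CPM of the adipogenic list (x axis) against the osteogenic list (y axis) per member, each as log10 of CPM + 100, for DMM (left, 111 cells) and sham (right, 227 cells). Most cells of both libraries form 1 cloud with both sums high, with a few cells reaching osteogenic sums up to 212756 CPM in DMM and 343716 CPM in sham.

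Lepr itself was lower in DMM members, at 1133 CPM [1060.4, 1209] in DMM and 1729.5 CPM [1669, 1791] in sham, 1.53-fold [1.42, 1.65] lower. In single members its median was 1068 CPM in DMM and 1725 CPM in sham, with overlapping ranges. The span of Lepr (chr4:101717404-101815352, plus strand) falls in the longest quartile of gene spans, 81475 bases or more. All compared genes of that quartile had a median log2 ratio of -0.30 in members, and the part of span length was not tested. Lepr was part of the rule, so its lower level is a description. In the cells chosen by Kitl in its place, Lepr was at 949 CPM in DMM and 1562 CPM in sham, 1.65-fold [1.53, 1.78] lower. No Lepr UMI was found in 17 of 126 DMM cells (13.5%) and 25 of 242 sham cells (10.3%). Of these Kitl-chosen cells 103 in DMM and 207 in sham were also members. They held 882 of the 888 DMM and 3031 of the 3041 sham Lepr UMIs, so this reading is not independent of the members.

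Lepr was lower in DMM adventitial and osteoblast lineage cells too. It was at 56.8 CPM in DMM and 145 CPM in sham adventitial cells, and at 5.93 CPM in DMM and 44.1 CPM in sham osteoblast lineage cells. Perivascular cells had 0.652 CPM in DMM and 8.04 CPM in sham. Erythroid cells, as a gauge of free RNA, had 0.391 CPM in DMM and 8.24 CPM in sham. Both gauge levels are under 1% of the members' levels, but the perivascular levels are near them and cannot be told from free RNA. The gauge was itself lower in DMM, and the part of free RNA in the adventitial and osteoblast lineage levels was not tested. Cxcl12, the other defining gene, was close to level, at 18048 CPM in DMM members and 17246 CPM in sham members, a ratio of 1.05 [1.03, 1.07].

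Across all genes with at least 50 UMIs over both member sets, 6884 in number, 626 (9.09%) were at least 1.5-fold higher and 819 (11.9%) at least 1.5-fold lower in DMM members, and the median log2 ratio was -0.05. These shares are the background for the counts below, which leave out the genes of the rule. The cut of 1.5-fold is a size and carries no p-value. The log2 ratio also ran with the length of a gene's span in the genome, with medians of 0.31, 0.05, -0.16 and -0.30 from the shortest to the longest quartile of spans. The same quartiles had medians of 0.21, -0.07, -0.21 and -0.35 in erythroid cells, 0.22, -0.02, -0.19 and -0.31 in perivascular cells, 0.20, -0.03, -0.20 and -0.35 in osteoblast lineage cells and 0.25, -0.02, -0.21 and -0.29 in adventitial cells, so all 5 classes had this run. A list of short or long genes therefore carries it, and its part in the list medians was not tested.

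The factors that serve blood stem and progenitor cells were mostly between the folds. Of 16 niche factors 14 could be compared, and 1 was past 1.5-fold higher and 2 past it lower, with a median log2 ratio of -0.14, near the shares and the median of all genes. Kitl was at 1977 CPM in DMM members and 2378 CPM in sham members, 1.20-fold [1.14, 1.28] lower, and Angpt1 (angiopoietin-1, a quiescence signal) at 389.8 CPM in DMM members and 521 CPM in sham members, 1.34-fold [1.17, 1.52] lower. Csf1, the macrophage growth factor, was at 459 CPM in DMM members and 436 CPM in sham members. Vcam1, the adhesion molecule that holds blood cells to the stroma, was at 1426 CPM in DMM members and 1160.0 CPM in sham members, 1.23-fold [1.14, 1.32] higher.

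The 2 niche factors past the fold downward were a bone-resorption signal and a growth factor. Tnfsf11 (RANKL, the signal that forms osteoclasts) was at 165 CPM in DMM members and 272 CPM in sham members, 1.64-fold [1.35, 2.01] lower. Fgf7 (keratinocyte growth factor) was at 257 CPM in DMM members and 387 CPM in sham members, 1.51-fold [1.29, 1.77] lower. The gene past it upward, Hgf (hepatocyte growth factor), was at 57.7 CPM in DMM members and 16 CPM in sham members, but 1 DMM cell held 69.6% of its UMIs. With the top cell of each library left out its log2 ratio was 0.29.

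Of 14 niche transcription factors 0 were past the fold upward and 1 downward, beside 9.09% and 11.9% of all genes. Their median log2 ratio was -0.14. Ebf3 was at 1606 CPM in DMM members and 1853 CPM in sham members, Runx1 at 1401 CPM in DMM members and 1691 CPM in sham members, and Zeb2, a zinc finger repressor, at 1464 CPM in DMM members and 1811 CPM in sham members. These 3 were each under 1.5-fold lower. The exception was Ebf2, a relative of Ebf1 found in immature mesenchymal cells, at 25.1 CPM in DMM members and 73.0 CPM in sham members, 2.91-fold [1.81, 4.92] lower. The median span of this list, 94683 bases, was the longest of the 16 lists.

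Adipogenic genes were mostly between the folds. Of 11 comparable adipogenic genes 1 was past the fold upward and 1 downward, near the shares of all genes, and the median log2 ratio was 0.32. This list has a short median span of 4489 bases, and all genes of the shortest quartile had a median of 0.31. Lpl was at 1953 CPM in DMM members and 1453 CPM in sham members, 1.34-fold [1.26, 1.43] higher, Apoe (a lipid carrier) at 2827 CPM in DMM members and 2259 CPM in sham members, and Cebpd, an early factor of fat cell formation, at 849.8 CPM in DMM members and 638 CPM in sham members. Agt (angiotensinogen) was at 435 CPM in DMM members and 311 CPM in sham members, 1.40-fold [1.22, 1.60] higher. Adipoq was level, at 706 CPM in DMM members and 714 CPM in sham members, a ratio of 0.989 [0.894, 1.09]. Genes of mature fat cells were low: Fabp4, the fatty acid carrier, was at 13.8 CPM in DMM members and 131 CPM in sham members, 9.50-fold [5.22, 19.3] lower, and 1 sham cell held 32.1% of it.

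Of 19 comparable osteogenic genes 0 were past the fold upward and 7 downward, beside the 11.9% of all genes, with a median log2 ratio of -0.42. Their median span was 28684 bases, in the second quartile. Runx2 was at 934 CPM in DMM members and 1543 CPM in sham members, 1.65-fold [1.52, 1.79] lower, and no member held more than 5.64% of its UMIs. Wif1, a secreted Wnt inhibitor, was at 180.5 CPM in DMM members and 327 CPM in sham members, 1.81-fold [1.51, 2.19] lower. A Wif1 UMI was found in 46.8% of DMM and 57.7% of sham members, and in 4.49% of DMM and 4.30% of sham erythroid cells. Limch1, an activator of non-muscle myosin, was 1.55-fold lower and Mmp13, a collagenase of bone and cartilage, 1.52-fold lower, with a log2 ratio of -0.12 when the rule asked for 3 Cxcl12 UMIs.

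Bglap and Bglap2, also among the 7, encode osteocalcin, a protein of mature osteoblasts, and are near-identical copies between which reads could be split. Bglap was at 267 CPM in DMM members and 1264 CPM in sham members, but single cells held 91.1% of it in DMM and 93.6% in sham. Without the 4 DMM and 14 sham members that were rich in RNA of another cell type, left out as an alternative chosen after seeing the data, the log2 ratio was 0.76 for Bglap and 0.47 for Bglap2, so both turned round. That of Runx2 was then -0.79. Ibsp was level, at 2756 CPM in DMM members and 2849 CPM in sham members, and so was Spp1 (osteopontin), at 2948 CPM in DMM members and 2719 CPM in sham members. Runx2 was also lower in DMM osteoblast lineage cells (724 CPM in DMM and 1200.0 CPM in sham). The list median was -0.42 in members, and 0.17 in perivascular, -0.17 in osteoblast lineage, -0.22 in adventitial and -0.11 in erythroid cells, values compared after they were seen.

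Among genes of antigen presentation and the interferon response, Ifitm3, Bst2, Psmb8 and Oasl2 were past the fold upward in DMM members. They were 4 of 13 comparable genes, beside the 9.09% of all genes, and 0 were past it downward. The median log2 ratio was 0.39, while all genes of the shortest quartile of spans had 0.31. Oasl2, a member of the oligoadenylate synthetase family, had few UMIs, and its ratio of 1.61 [0.888, 2.87] has an interval that holds 1. Ifitm3, a membrane protein that blocks virus entry, was at 1321 CPM in DMM members and 793 CPM in sham members, 1.67-fold [1.54, 1.81] higher. Bst2 (tetherin, which holds virus particles at the cell surface) was at 233 CPM in DMM members and 129 CPM in sham members, 1.81-fold [1.48, 2.20] higher. Psmb8, a subunit of the immunoproteasome that cuts peptides for class I molecules, was at 133 CPM in DMM members and 72.4 CPM in sham members, 1.83-fold [1.41, 2.39] higher. No single member held over 6% of the UMIs of these 3 genes in either library.

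The class I genes themselves were between the folds. H2-K1 was at 3215 CPM in DMM members and 2448 CPM in sham members, 1.31-fold [1.25, 1.38] higher, and B2m, their light chain, at 1767 CPM in DMM members and 1483 CPM in sham members, 1.19-fold [1.12, 1.27] higher. Irf1, a transcription factor of the interferon response, was at 562 CPM in DMM members and 398 CPM in sham members, 1.41-fold [1.25, 1.59] higher. The median log2 ratio of the list was 0.39 in members and 0.29 in perivascular cells, while it was -0.46 in osteoblast lineage, -0.38 in adventitial and -0.33 in erythroid cells, again compared after the values were seen. Levels of H2-K1 were 219 CPM in DMM and 131 CPM in sham perivascular cells, and 201 CPM in DMM and 327 CPM in sham osteoblast lineage cells. The genes of this list have a short median span of 5398 bases.

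The chemokines Cxcl9 and Cxcl10, which draw T cells through the receptor Cxcr3 and are induced by interferon, were among the largest differences but came from few cells. Cxcl9 was at 130.4 CPM in DMM members and 28.2 CPM in sham members, 4.62-fold [3.28, 6.60] higher, with 17 of 111 DMM members (15.3%) and 9 of 227 sham members (3.96%) holding a UMI and 0 erythroid cells, which allows a share of up to 0.843% in DMM and 0.403% in sham. One cell held 32.7% of the Cxcl9 UMIs in DMM and 45.1% in sham. Cxcl10 was at 75.2 CPM in DMM members and 14.4 CPM in sham members, 5.23-fold [3.25, 8.64] higher, with 46.7% in 1 DMM cell. With the top cell of each library left out, the log2 ratio was 2.50 for Cxcl9 and 1.93 for Cxcl10. Of the 9 comparable chemokines and cytokines 3 were past the fold upward and 1 downward, beside 9.09% and 11.9% of all genes. Their median log2 ratio was 0.26. The third upward, the monocyte chemokine Ccl7, was at 199 CPM in DMM members and 105 CPM in sham members, but 1 DMM cell held 49.1% of it, and its log2 ratio was 0.12 with the top cell of each library left out. Cxcl14, a chemokine of resting stroma, was at 1764 CPM in DMM members and 1446 CPM in sham members, and Ccl2, another monocyte chemokine, at 573 CPM in DMM members and 479.9 CPM in sham members. Without its top cells the log2 ratio of Ccl2 was -0.15. Tnfrsf11b, the decoy receptor of RANKL, was low, at 8.77 CPM in DMM members and 28.2 CPM in sham members.

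Receptors that read cytokines were between the folds. Of 14 comparable genes of cytokine receptors and STAT signalling 0 were past the fold either way. All genes had shares of 9.09% upward and 11.9% downward. The log2 ratios of the list ran from -0.52 to 0.50, with a median of -0.18. Ghr (the growth hormone receptor) was at 1601 CPM in DMM members and 1982 CPM in sham members, Lifr (the leukaemia inhibitory factor receptor) at 1003 CPM in DMM members and 1188 CPM in sham members, and the kinase Jak1 at 450.0 CPM in DMM members and 575 CPM in sham members. The kinase Jak2 was at 108 CPM in DMM members and 134 CPM in sham members. The leptin receptor signals through this pathway. Stat3, which it activates, was at 494 CPM in DMM members and 513 CPM in sham members, a ratio of 0.962 [0.853, 1.08], and its feedback inhibitor Socs3 at 656 CPM in DMM members and 626 CPM in sham members, a ratio of 1.05 [0.942, 1.16].

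Complement and acute-phase genes were split. Of 12 comparable genes 1 was past the fold upward and 2 downward, beside 9.09% and 11.9% of all genes. Their median log2 ratio was -0.01. Hp was at 3824 CPM in DMM members and 2871 CPM in sham members, 1.33-fold [1.27, 1.39] higher, and Serpina3g, a mouse protease inhibitor, at 198 CPM in DMM members and 119 CPM in sham members, 1.66-fold [1.34, 2.05] higher. Saa3 (a serum amyloid) was low, at 8.77 CPM in DMM members and 35.4 CPM in sham members, with 85.7% in 1 DMM cell and 75% in 1 sham cell. Among the 20 leading genes as a whole 2 were past the fold upward, 1 downward and 17 between, and their median log2 ratio was 0.11. Serpina12 (vaspin, a protein known from fat tissue) was at 145 CPM in DMM members and 61.4 CPM in sham members, 2.37-fold [1.81, 3.10] higher, and was found in 39.6% of DMM and 26.4% of sham members. Grid1, a glutamate receptor subunit, was at 74.0 CPM in DMM members and 134 CPM in sham members, 1.81-fold [1.36, 2.45] lower.

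Matrix genes rested more on single cells. Of 21 matrix and basement membrane genes 5 were past the fold upward and 1 downward, beside 9.09% and 11.9% of all genes. Their median log2 ratio was -0.00. Col3a1, a collagen of loose connective tissue, was at 849 CPM in DMM members and 255 CPM in sham members, 3.33-fold [2.95, 3.76] higher, with 20.8% in 1 DMM cell and 15% in 1 sham cell. Col3a1 was also higher in DMM in erythroid cells, at 285 CPM in DMM and 134 CPM in sham, which should lack it. The part of free RNA in it was not tested. Dcn (decorin) was at 2445 CPM in DMM members and 1493 CPM in sham members, 1.64-fold [1.54, 1.74] higher, with 675 CPM in DMM and 573 CPM in sham erythroid cells and 22.1% in 1 DMM member. Its log2 ratio turned to -0.30 when the rule asked for 3 Lepr UMIs. Lum (lumican) was 1.82-fold higher, but its log2 ratio was 0.065 when the rule asked for 3 Cxcl12 UMIs. Fn1 (fibronectin) was 1.69-fold higher, and its log2 ratio turned to -0.53 without the Prg4 and Col2a1 limits. The laminin gene Lama4 was 1.65-fold lower. Tnc (tenascin-C), at 1747 CPM in DMM members and 2289.6 CPM in sham members, stayed between the folds.

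Of 16 comparable modulators of BMP, Wnt and IGF signals 3 were past the fold upward and 0 downward. All genes had shares of 9.09% and 11.9%, and the median log2 ratio of this list was -0.06. Igfbp4, an IGF-binding protein, was at 4525 CPM in DMM members and 4236 CPM in sham members, and Igfbp5 at 3201 CPM in DMM members and 3424 CPM in sham members. Grem1, a BMP antagonist that marks skeletal progenitors, was at 434 CPM in DMM members and 572 CPM in sham members, 1.32-fold [1.17, 1.49] lower. Rspo2, an enhancer of Wnt signals, was at 299.6 CPM in DMM members and 169 CPM in sham members, 1.78-fold [1.49, 2.11] higher, while Igfbp6 (3.52-fold higher) owed 43.2% of its DMM UMIs to 1 cell. Of 12 skeletal stem and stromal surface genes 0 were past the fold, with a median log2 ratio of -0.09. Pdgfra was at 369 CPM in DMM members and 356 CPM in sham members, and Pdgfrb, the other receptor of platelet-derived growth factors, at 607 CPM in DMM members and 473 CPM in sham members. The cadherins Cdh11 and Cdh2 were also between the folds.

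Genes of oxidative phosphorylation were past the fold upward in a larger share than all genes. Of 18 oxidative phosphorylation genes 7 were past the fold upward and 1 downward, beside 9.09% and 11.9% of all genes. Their median log2 ratio was 0.49. Cox8a, a subunit of cytochrome c oxidase, was at 479 CPM in DMM members and 263 CPM in sham members, 1.82-fold [1.59, 2.09] higher. The same list had medians of 0.48 in erythroid, 0.55 in adventitial, 0.27 in perivascular and 0.16 in osteoblast lineage cells, and the short median span of 5274 bases. Of 17 glycolysis and hypoxia genes 3 were past the fold upward and 1 downward, with a median of 0.16. Tpi1, a glycolytic enzyme, was at 127 CPM in DMM members and 64.1 CPM in sham members, 1.97-fold [1.5, 2.60] higher, and Vegfa, the vessel growth factor, at 160.4 CPM in DMM members and 255 CPM in sham members, 1.59-fold [1.31, 1.95] lower.

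Of 17 early-response genes, which tissue dissociation induces, 2 were past the fold upward and 0 downward, beside 9.09% and 11.9% of all genes. Their median log2 ratio was 0.33 and their median span 3470 bases. Klf2, a transcription factor of this group that also limits fat cell formation, was at 599 CPM in DMM members and 299 CPM in sham members, 2.01-fold [1.77, 2.27] higher, and was found in 68.5% of DMM and 55.5% of sham members beside 9.83% of DMM and 8.86% of sham erythroid cells. Fos was at 2555 CPM in DMM members and 2139.8 CPM in sham members and Egr1 at 1400.1 CPM in DMM members and 1399 CPM in sham members, both between the folds. Of 13 metallothionein and antioxidant genes 2 were past the fold upward and 0 downward, with a median of 0.34, led by the metal-binding Mt1 (1.67-fold higher) and Mt2 (1.86-fold higher).

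**Figure D5:**
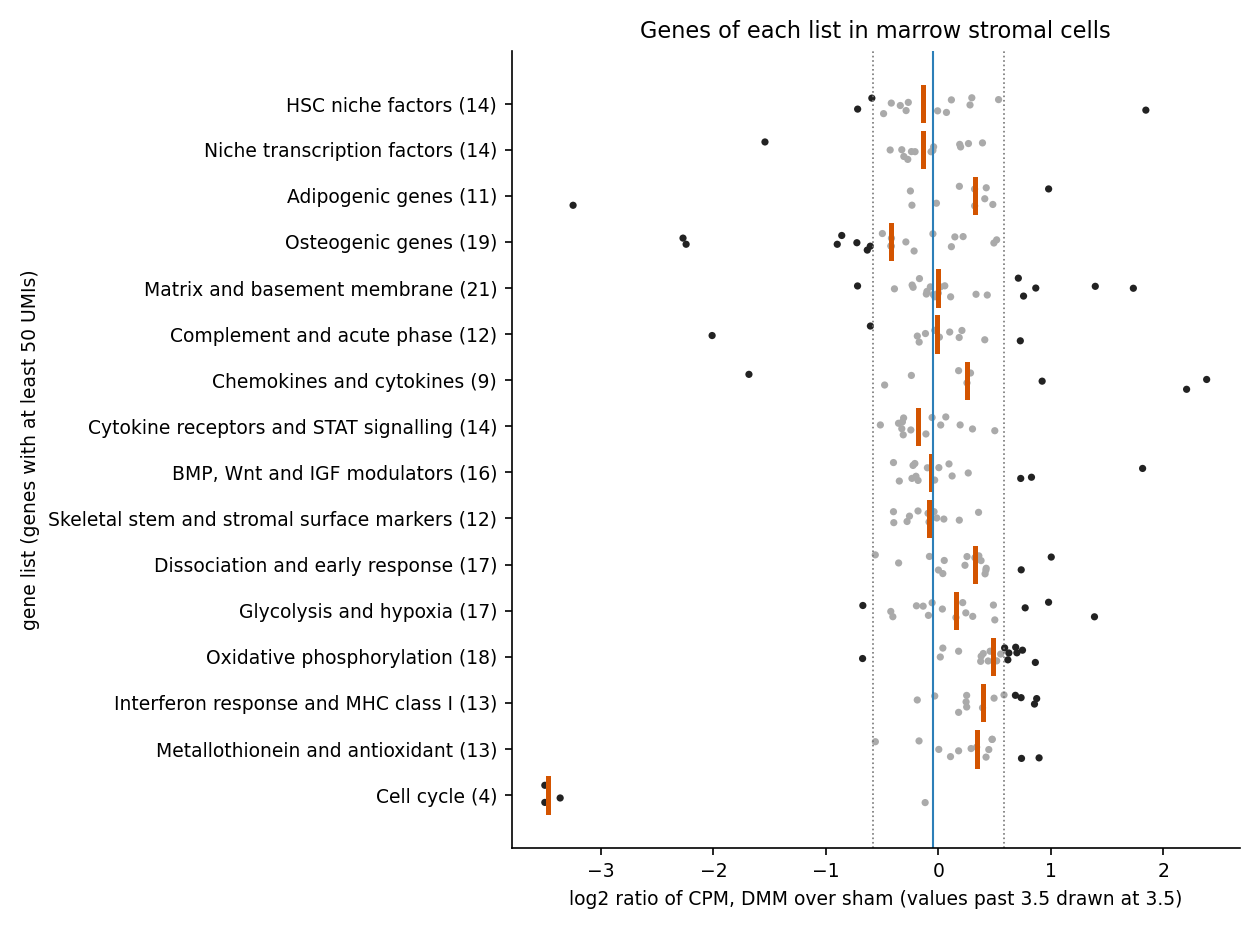
Log2 ratios of CPM, DMM over sham, in members for the genes with at least 50 UMIs of 16 lists (rows, number of genes in brackets). Points are genes, black where past 1.5-fold (dotted lines) and grey otherwise, orange bars are list medians, and the blue line is the median of all 6884 genes. The osteogenic median lies at -0.42, and those of the oxidative phosphorylation (0.49) and the interferon list (0.39) lie to the right, while the cell cycle median rests on 4 genes.

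Genes of dividing cells were low in members. Of 14 cell cycle genes 4 had enough UMIs. Of these 0 were past the fold upward and 3 downward, beside 9.09% and 11.9% of all genes. Their median log2 ratio was -3.47. Mki67, a marker of dividing cells, was at 6.27 CPM in DMM members and 74.6 CPM in sham members, and 1 sham cell held 56.3% of it. Erythroid cells had 1168 CPM in DMM and 1740.2 CPM in sham. Without the members rich in RNA of another type, Pcna, a clamp of DNA replication, was the only one of the 4 with 50 UMIs, and its log2 ratio was 0.15. The other 3 had too few UMIs to be compared: Mki67 had 5 in DMM and 16 in sham, Top2a 3 in DMM and 16 in sham, and Birc5 1 in DMM and 7 in sham.

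RNA of other cell types was present in members and moved with some of these genes, and its part in them was not tested. Members rich in such RNA were 4 in DMM and 14 in sham, by at least 1% haemoglobin UMIs (1 DMM and 4 sham cells), Bglap of 2000 CPM (1 DMM and 3 sham cells), Rgs5 of 2000 CPM (1 DMM and 1 sham cell), Msmp of 2000 CPM (0 DMM and 3 sham cells), S100a8 with S100a9 of 2000 CPM (0 DMM and 1 sham cell) or Prg4 of 5000 CPM (2 DMM and 5 sham cells). The summed erythroid markers were at 6267 CPM in DMM and 4581 CPM in sham, and 1 DMM cell held 94.7% of Hbb-bs. Chondrocyte markers were at 1124 CPM in DMM and 991 CPM in sham, superficial zone markers at 921 CPM in DMM and 596 CPM in sham, and mural cell markers at 941 CPM in DMM and 539 CPM in sham. Adventitial fibroblast markers, part of the rule, were at 262 CPM in DMM and 197 CPM in sham, tendon and ligament markers at 167 CPM in DMM and 61.9 CPM in sham, and synovial lining markers at 105 CPM in DMM and 67.5 CPM in sham.

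Markers of cells that the sort excluded were low, apart from the erythroid ones and the neutrophil RNA of 1 sham cell. Endothelial markers summed to 27.6 CPM in DMM and 18.8 CPM in sham, with 3 of 8 genes at 0 in DMM and 1 of 8 in sham. Macrophage markers summed to 7.52 CPM in DMM and 30.4 CPM in sham (4 of 7 genes at 0 in DMM and 2 of 7 in sham), and B lineage markers to 3.76 CPM in DMM and 0.553 CPM in sham (5 of 7 at 0 in DMM and 6 of 7 in sham). Neutrophil lineage markers summed to 5.01 CPM in DMM and 143 CPM in sham, with 5 of 8 at 0 in DMM and 2 of 8 in sham, and 1 sham cell held 96.4% of S100a9. Schwann cells were not a target of the sort. Their markers summed to 57.7 CPM in DMM and 63.0 CPM in sham, nearly all of it S100b, and 3 of 5 were at 0 in DMM and 2 of 5 in sham.

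At the ends of the DMM over sham range, several genes had most of their UMIs in 1 cell. Among the 10 highest genes were Rgs5 (a pericyte regulator, 217 CPM in DMM members and 26.0 CPM in sham members, with 69.9% in 1 DMM cell) and Col10a1 (a collagen of hypertrophic cartilage, 69.3% in 1 DMM cell). The others were Crispld2, Cxcl9, Hbegf, Igfbp6, Col3a1, Lgals3, Fam13a and Rrad. Among the 10 lowest were Msmp (3.76 CPM in DMM members and 2578 CPM in sham members, 96.4% in 1 sham cell), Mki67 and the histone genes Hist1h1b and Hist1h1e, beside Fabp4, Nlgn1, Col25a1, Car2, Bglap and Bglap2. Without the members rich in RNA of another type, the log2 ratio was 1.30 for Rgs5, 0.67 for Col10a1, -1.96 for Msmp, -0.58 for Mki67 and -0.61 for Hist1h1b, while it was 1.97 for Col3a1 and 2.12 for Cxcl9. Of these ends, Rrad, a small GTP-binding protein, was among the least dominated by 1 cell, at 273 CPM in DMM members and 100.1 CPM in sham members, 2.73-fold [2.23, 3.34] higher, with 15.1% in 1 DMM cell and 8.29% in 1 sham cell.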

How the data were processed

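The authors deposited UMI counts per gene and barcode, with no normalisation, for 1 DMM and 1 sham library. They came from Cell Ranger 7.1.0 per the file headers, but from version 3.0.1 per the submitters' processing notes, which also name Seurat, STAR, HTSeq, DESeq2 and mm10. A bulk table of 6 per-sample columns that match no sample was not used.

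Barcodes with fewer than 500 genes or over 10% mitochondrial UMIs were dropped, and no doublets were removed (a Scrublet run that marked 3.64% of DMM and 4.63% of sham barcodes, 3 DMM and 4 sham members among them, was an alternative). Counts were summed over the cells of a class and scaled to CPM. Perivascular cells had 2 or more Acta2 UMIs and at least 3 of Rgs5, Notch3, Myh11, Tagln, Kcnj8, Abcc9 and Higd1b. Osteoblast lineage cells had at least 2 of Bglap, Bglap2, Ibsp, Sp7, Alpl and Dmp1 with 2 UMIs and 2000 CPM of Col1a1. Adventitial cells had 4 or more of the 6 adventitial genes, and erythroid cells at least 20% haemoglobin UMIs. Intervals are Poisson, Clopper-Pearson for shares and exact conditional binomial for ratios, at 95%. Thinning drew 2000 UMIs per cell (seed 1). The ratio code was checked on simulated counts.

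Genes were named by rule: the genes of the membership rule, up to 6 members of each list by level and all past 1.5-fold, the 20 leading genes, and the 10 highest and 10 lowest ratios with at least 100 UMIs, 50 CPM, an interval without 1, and 1 direction also with median-of-ratios scaling and without the top cell. These ends leave out mitochondrial, ribosomal, haemoglobin, blood marker and unnamed genes. Some genes that the rule names are not reported here. The cells, the 16 gene lists and the 12 marker lists of other cell types were chosen with earlier results of these data known. Of their 355 genes 354 were measured, since 2 identifiers share the symbol Ccl19. Positions came from GENCODE vM21, which placed 99.8% of the 32285 features. The software was matplotlib 3.10.9, pandas 2.3.3, scanpy 1.11.5, scipy 1.17.1, numpy 2.4.6 and Python 3.11.15. Alternatives changed the rule's thresholds, the filters, the scaling, the depth and the count minimum.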

Additional observations from a re-analysis of the deposited data

How the results depend on the processing

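With 1 library per group and Poisson intervals, nothing here measures variation between mice, and genes under 50 UMIs were not compared. The lower share of members in DMM kept its direction under all 13 alternatives, with log2 ratios between -1.39 and -0.83 against -1.02, and -1.39 came from thinning all barcodes to 2000 UMIs. Genes past 1.5-fold numbered 626 higher and 819 lower, against 252 and 401 with members thinned to 2000 UMIs, 1190 and 1442 with a minimum of 20 UMIs, 321 and 459 with a minimum of 100 UMIs, and 98 and 207 at a fold of 2. The interval of a list ran from the median lower to the median upper bound of its genes' counting intervals. It is not an interval of the list median and leaves out the spread among genes. Of 287 list medians 281 stayed within the interval of their list, but 28, from 9 lists, had the other sign. For 7 of these lists the interval holds 0, and no direction is given. The chemokine median of 0.26 was 0.062 with 1 Lepr UMI, 0.058 with Kitl in place of Lepr, and turned to -0.029 with a minimum of 20 UMIs. The dissociation median of 0.33 was 0.15 with 3 Cxcl12 UMIs. The cell cycle median of -3.47 was -0.30 with Kitl in place of Lepr and 0.15 without members rich in RNA of another type, where Pcna alone had 50 UMIs. Of 2795 values of 175 genes 2497 stayed within the gene's counting interval. The other sign came up in 86 values of 32 genes, Col1a1 (-1.91 with 10 Cxcl12 UMIs) and Ccl2 among them. Of 85 genes past the fold with an interval without 0, 42 were under it in at least 1 alternative and 5 turned round: Bglap (0.76) and Bglap2 (0.47) without those members, Dcn (-0.30) with 3 Lepr UMIs, and Fn1 (-0.53) and Sparcl1 (-0.23) without the Prg4 and Col2a1 limits. The settings with Kitl, without those members and with means of single-cell CPM (793 genes higher and 981 lower) were chosen after seeing the data. Apart from the cells left out, the causes were not tested. No paired analysis was possible because each group is 1 library.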

Other observations

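Some differences were spread over many members. Among genes with at least 200 UMIs of which no cell held over 10%, a selection made after the values were seen, the 12 highest in DMM members were AW112010, Serpina12, S100a16, Klf2, Tpi1, Cyb5r3, S100a10, Bcl7c, Psmb8, Imp3, Atp6v0b and Cox8a. AW112010, a transcript induced by interferon in mouse, was at 155 CPM in DMM members and 64.1 CPM in sham members, 2.42-fold [1.87, 3.15] higher, and at 5.87 CPM in DMM and 0.893 CPM in sham perivascular cells. The calcium-binding S100a10 was at 446 CPM in DMM members and 239 CPM in sham members, 1.87-fold [1.62, 2.15] higher.

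The 12 lowest of the same selection were Abca1, Tle1, Glcci1, Acyp2, Cdc14a, Negr1, Sned1, Nav2, Fam117b, Scara5 (a gene of the rule), Bbx and Rad51b. Across all compared genes the log2 ratio ran with span length, as given above. Its median in members was 0.31 in the shortest and -0.30 in the longest quartile of spans. Erythroid cells had 0.21 and -0.35. The part of span length in the 12 highest and 12 lowest genes was not tested. Abca1, the cholesterol exporter, was at 60.2 CPM in DMM members and 160.3 CPM in sham members, 2.67-fold [1.96, 3.70] lower, and its log2 ratio stayed between -1.73 and -1.28 under the alternatives. Negr1, a neuronal adhesion protein, was at 149 CPM in DMM members and 310.2 CPM in sham members, 2.08-fold [1.70, 2.56] lower, and was lower in adventitial cells too (59.2 CPM in DMM and 134 CPM in sham). Rad51b, a DNA repair gene, was at 273 CPM in DMM members and 531 CPM in sham members.

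Lepr without Cxcl12 marked other cells. Barcodes with at least 2 Lepr UMIs and no Cxcl12 UMI numbered 183 in DMM and 479 in sham, more than the members in both libraries. Their Adipoq was at 0 CPM in DMM and 0.246 CPM in sham, their Kitl at 2.79 CPM in DMM and 10.8 CPM in sham, and their Prg4 at 19102 CPM in DMM and 16446 CPM in sham.

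The noncoding transcript Gm42418, which overlaps a ribosomal RNA repeat, was at 34347 CPM in DMM members and 47049 CPM in sham members, summed over cells.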
